A study of Drosophila melanogaster with 2 samples.

Results

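The genes for the FACT subunits and for the small HMG-box chromatin proteins of Drosophila melanogaster were examined for peaks of Ssrp, one of the FACT subunits. The set was given by name and holds 5 of the 18277 annotated genes, Ssrp, dre4, HmgD, HmgZ and Dsp1, all of them protein-coding. A peak was assigned to a gene when its summit, the position of highest signal within the peak, lay in the gene or within 2 kb of it. Chromatin immunoprecipitation with sequencing (ChIP-seq) was used, which reads out the DNA that comes down with a protein. The only group consisted of whole embryos of mixed sex, aged 0 to 16 h, from 1 transgenic line whose Ssrp protein ended in GFP. Anti-GFP antibody was used for the precipitation. The group had 2 biological replicates, which the labels give as separate biosamples of that line. The promoter that drove the tagged copy, the state of the untagged Ssrp gene and the number of embryos are not stated. Signal from all cell types of the embryo is mixed, and more cells with Ssrp at a site cannot be told apart from more Ssrp per cell.

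The deposited data are 4 peak lists on the dm6 assembly. Each replicate list and the list called on both replicates together (the pooled list) held 30000 peaks. A final list, thresholded by the irreproducible discovery rate (IDR), which scores how alike peaks rank in the replicates, held 5445 peaks, which were the strongest of the pooled list. Rank 1 is the peak with the highest signal of a list, and signal is the authors' own value for each peak, comparable only within its list. The median signal was 47.8 in replicate 1, 33.1 in replicate 2, 72.3 among pooled peaks and 292 among IDR peaks, where the lowest was 157. Sequencing depth is unknown, as read numbers are not part of the lists. Control libraries were not analysed here, so how far each peak depended on the tagged protein was not tested.

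FACT is a histone chaperone of the Ssrp protein and the Spt16 protein, which dre4 encodes. It loosens nucleosomes ahead of polymerases and helps to put them back behind them. Ssrp itself carries an HMG box, a DNA-bending domain that it shares with HmgD, HmgZ and Dsp1. HmgD and HmgZ are close relatives that bind DNA with little preference for sequence, and HmgD is abundant in the chromatin of the early embryo. Dsp1 is a co-repressor that works with the Dorsal protein and also takes part in recruiting Polycomb proteins.

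The DNA under the peaks of dre4 and Dsp1 is shown because both genes had a peak close upstream of their start and because these peaks differ in how they are built from A and T. Sequences are from the Release 6 genome, 5′ to 3′, with runs of 8 or more A or T in capitals. The dre4 sequence is the whole gap of 238 bp between dre4 and its upstream neighbour CG13937 (chr3L:1876313-1876550, minus strand, which is the strand of dre4), and its last base adjoins the transcription start site (TSS) of dre4.
dre4 upstream gap: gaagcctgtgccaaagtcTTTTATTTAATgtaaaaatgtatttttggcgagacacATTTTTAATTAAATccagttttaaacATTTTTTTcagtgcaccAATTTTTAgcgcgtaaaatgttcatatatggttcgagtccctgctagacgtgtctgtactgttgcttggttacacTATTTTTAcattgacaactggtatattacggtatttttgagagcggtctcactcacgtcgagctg
The Dsp1 sequences are the upstream summit with 100 bp on either side (chrX:16332906-16333106, plus strand, the strand of Dsp1) and the whole of the narrow intronic peak of 130 bp (chrX:16335271-16335400, plus strand).
Dsp1 upstream peak: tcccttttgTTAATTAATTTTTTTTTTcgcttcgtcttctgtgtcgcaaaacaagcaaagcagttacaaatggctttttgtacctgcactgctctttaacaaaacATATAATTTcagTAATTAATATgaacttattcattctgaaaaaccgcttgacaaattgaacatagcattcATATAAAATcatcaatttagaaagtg
Dsp1 intronic peak: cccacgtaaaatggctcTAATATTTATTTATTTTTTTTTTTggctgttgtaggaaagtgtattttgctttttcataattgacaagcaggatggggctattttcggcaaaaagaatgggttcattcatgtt
The dre4 gap held 5 such runs, the longest of 14 bases, and its GC content was 36.1%. The summit of the IDR peak was base 51, just ahead of the run of 14. The upstream Dsp1 sequence held 4 runs, the longest of 18 bases, at 29.9% GC. The intronic Dsp1 peak held a single run of 24 bases at 33.1% GC, just ahead of the summit.

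Of the 5 genes, 4 had an IDR summit in the gene or within 2 kb, where 35.5% of all 13968 protein-coding genes did. The gene without one was Ssrp. The pooled list gave the same 4 genes, against 68.2% of protein-coding genes. Within 500 bp of one of their own start sites, 2 of the 5 had an IDR summit, dre4 and HmgZ, against 19.3% of protein-coding genes. No test was run on these counts, because the genes were chosen with results of these data known.

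The genes differed in how many summits they held. HmgD had 5 IDR summits in its window, HmgZ 4, Dsp1 2, dre4 1 and Ssrp 0. HmgD and HmgZ share 4 of these, so 8 different IDR peaks were assigned in all. The replicate counts were close for 4 genes: HmgD had 17 summits in replicate 1 and 18 in replicate 2, HmgZ 13 in each, Dsp1 8 and 9, and dre4 4 and 3. Ssrp had 0 and 2. Close counts were not always the same peaks. At dre4 the replicate 1 summits at 1869982 and 1871472 had no counterpart in replicate 2, and that at 1875533 in replicate 2 had none in replicate 1. Per kb of window, IDR summits numbered 0.278 at HmgZ, 0.259 at HmgD, 0.182 at Dsp1, 0.114 at dre4 and 0 at Ssrp. The genome as a whole had 0.0396, a figure that includes DNA far from genes and chromosome Y, which had no peak. A single summit in any of these windows already exceeds it, so the difference is not a measure of enrichment. Among all protein-coding genes, 1.34% had as many IDR summits as HmgD or more, 2.13% as many as HmgZ or more, and 11.9% as many as Dsp1 or more. Long genes offer more room for peaks. Among the 1756 protein-coding genes between 0.5 and 2 times the length of HmgD, 57 (3.25%) had at least as many IDR summits. Around the length of HmgZ it was 71 of 2402 genes (2.96%), and around that of Dsp1 529 of 3224 (16.4%). At the length of dre4, 41.6% of 4412 genes had any IDR summit, and at that of Ssrp, 35.0% of 6524 did.

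HmgD and HmgZ, the HMG-box pair, lie on opposite strands of chromosome 2R and overlap by 6404 bp. HmgD runs from 21701458 to 21716727 on the plus strand (15270 bp), and HmgZ from 21697488 to 21707861 on the minus strand (10374 bp). Each gene has 4 annotated transcripts from 3 start sites. The 5 IDR summits of the pair spread over 15049 bp, with gaps of 1855, 772, 6312 and 6110 bp between neighbours.

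The strongest peak of the whole set stood at 21703183 to 21703686, with its summit at 21703430, inside introns of both genes. Its signal was 1505 in replicate 1 (rank 17), 1904 in replicate 2 (rank 13) and 3405 in the IDR list (rank 14), or 11.7 times the IDR median. The replicate summits lay 27 bp and 0 bp from the IDR summit. This summit was outside promoters, taken here as 500 bp on either side of a start site. It lay 600 bp upstream of the start shared by the transcripts HmgZ-RA and HmgZ-RC. The start of HmgZ-RB was 1071 bp and that of HmgD-RD 1972 bp away, with the summit downstream of both. Through this peak HmgD and HmgZ stood in place 31 of the 4955 protein-coding genes with an IDR summit in the window, ordered by their highest signal. The genes next to it in rank with an IDR summit within 500 bp of a start site were CG18549 (rank 13, signal 3472) and PNPase (rank 15, signal 3363), a ribonuclease of mitochondria. Their replicate ranks were 11 and 15 for CG18549 and 18 and 14 for PNPase, as close together as those of the HmgD and HmgZ peak.

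**Figure D1:**
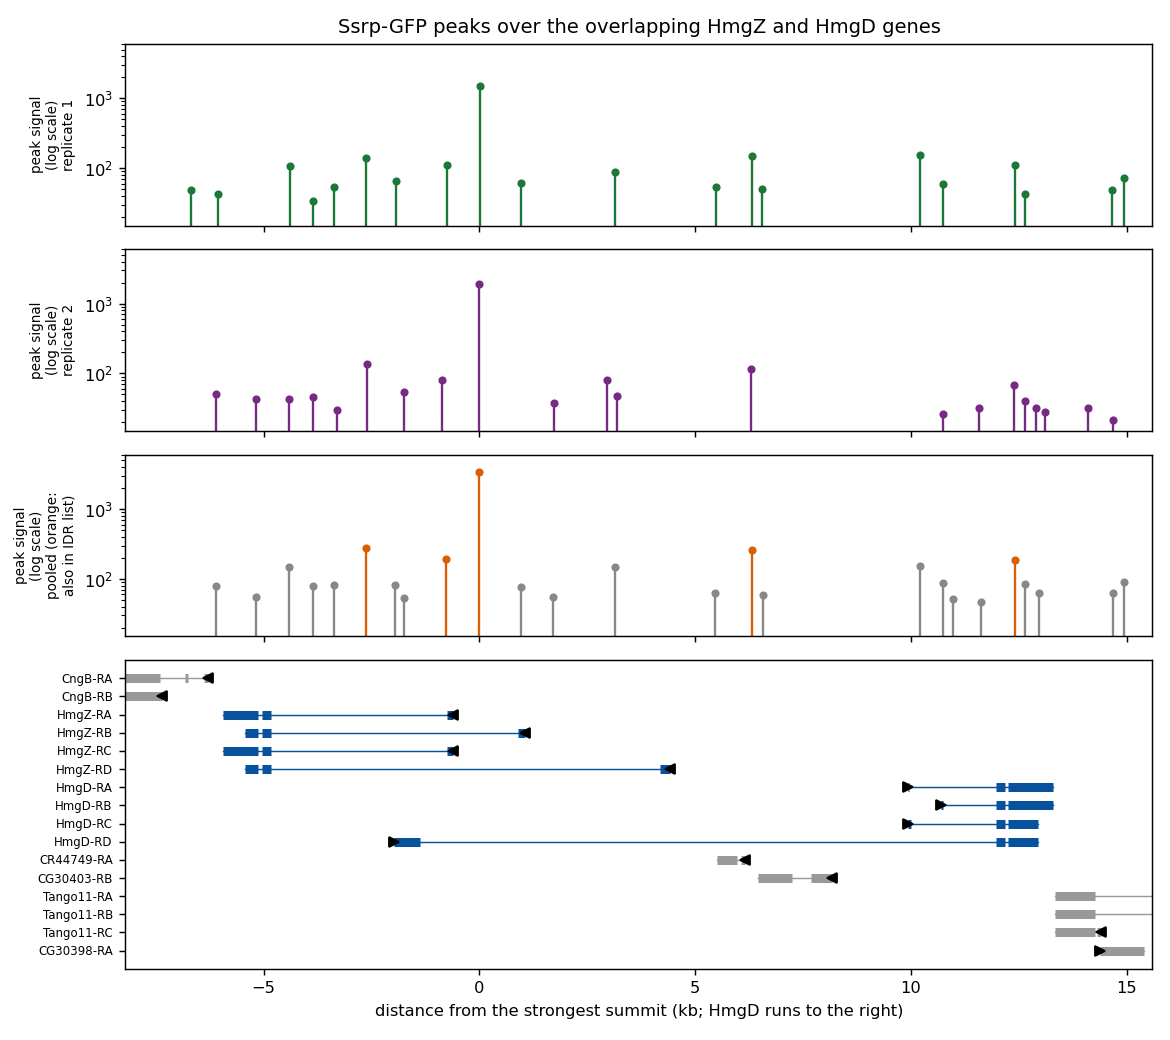
Peaks at the overlapping HmgD and HmgZ genes in replicate 1, replicate 2 and the pooled list, with IDR peaks in orange. The x axis is the distance in kb from the strongest summit, each stick is a summit with its signal on a log y axis, and the gene models are drawn below; 1 peak, at 0 kb, stands far above its neighbours in all 3 panels.

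The other 4 IDR peaks of the pair were far weaker, at 0.637 to 0.934 times the IDR median. The peak with its summit at 21700803, in an intron of HmgZ and 655 bp upstream of HmgD-RD, had signals of 139 in replicate 1 (rank 2815), 135 in replicate 2 (rank 3164) and 272 in the IDR list (rank 2939). The peak at 21709742, in an intron of HmgD and 147 bp upstream of the long non-coding RNA lncRNA:CR44749, had 148 (rank 2590), 114 (rank 3839) and 259 (rank 3154). The peak at 21702658, 172 bp downstream of the start of HmgZ-RA and HmgZ-RC, had 111 (rank 3834), 81.4 (rank 5413) and 194 (rank 4379). This last one was the only IDR summit within 500 bp of a start site of either gene. The weakest, at 21715852, had 110 (rank 3880), 67.8 (rank 6459) and 186 (rank 4589). In each of the 4 the rank was lower in the order, that is, a larger number, in replicate 2.

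The weakest of them lay in a coding exon of HmgD, 1716 bp downstream of the start of HmgD-RB. Summits were sorted into promoters first, within 500 bp of any start site, and the rest by the feature they lay in. Coding exons outside promoters held 9 of the 5445 IDR summits (0.165%), and the other 8 were in otp, Pde1c, klar, HisRS, CYLD, l(3)mbn, Tom and CG11906. By contrast, promoters held 2214 IDR summits (40.7%) and introns 2198 (40.4%). Of the 8 IDR summits assigned to the 5 genes, 3 were in promoters, 4 in introns and 1 in this coding exon.

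The start site of HmgD with the strongest pooled peak just missed the IDR list. A peak 282 bp downstream of the start of HmgD-RA and HmgD-RC had a pooled signal of 155 and rank 5539, under the lowest IDR signal of 157. It was strong in replicate 1, at rank 2495 with a signal of 152, and had no counterpart in replicate 2. The nearest replicate 2 summit to that start was 830 bp away, at rank 21109. The other starts of HmgD had weaker pooled summits, 30 bp from HmgD-RD at rank 12161 and 48 bp from HmgD-RB at rank 11425. The start of HmgZ-RB had one 99 bp away at rank 13664, and the nearest to HmgZ-RD was 1040 bp upstream at rank 18728. In the pooled list the next peaks under the IDR threshold were those at 21706571 (signal 146, rank 5890), in introns of both genes, and at 21699015 (rank 5934), in an intron of HmgZ. The pair also overlaps CG30403, which shares 1719 bp with HmgD, and lncRNA:CR44749, which shares 651 bp.

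Dsp1, the co-repressor gene, lies on chromosome X from 16333612 to 16340624 on the plus strand (7013 bp), with 7 annotated transcripts from 2 start sites. Its stronger IDR peak, whose sequence is given above, spans 16332810 to 16333181. The signal was 655 in replicate 1 (rank 198), 666 in replicate 2 (rank 244) and 1326 in the IDR list (rank 222), or 4.54 times the IDR median. The replicate summits fell within 2 bp of each other. The summit lay 606 bp upstream of the outer Dsp1 start, in an intron of the divergent neighbour CG9921, which lies 11 bp from Dsp1. The start of CG9921 was the nearer of the pair, at 594 bp. Its neighbours in rank with a summit near a start site were CG5953 (rank 221, signal 1326) and CG1607 (rank 224, signal 1319). By its highest signal Dsp1 stood in place 402 of the 4955 genes.

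The other IDR peak of Dsp1 was the narrow intronic one, 870 bp upstream of the inner start. It had signals of 190 in replicate 1 (rank 1819), 164 in replicate 2 (rank 2498) and 350.3 in the IDR list (rank 2119), 1.20 times the median. The replicate 1 summit was 54 bp away and that of replicate 2 was 7 bp away. The inner start itself had weak summits only, 321 bp downstream in replicate 1 at rank 28321 and 262 bp upstream in replicate 2 at rank 14685. The pooled list held 4 more peaks at Dsp1, the strongest at 16332164 with a signal of 110 and rank 8155, at a start of CG9921.

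The FACT gene dre4, which encodes Spt16, lies on chromosome 3L from 1876312 down to 1871574 on the minus strand (4739 bp) and has 1 start site. Its only IDR peak spans the gap to CG13937 shown above. The signal was 111 in replicate 1 (rank 3844), 190 in replicate 2 (rank 2044) and 312 in the IDR list (rank 2504), or 1.07 times the IDR median. The summits were 143 bp upstream of the start in replicate 1 and 227 bp upstream in replicate 2, so the replicates placed it 84 bp apart within the gap. The replicate 2 peak was 107 bp wide, against 396 bp for the IDR peak. In place 3045 of 4955 by its highest signal, dre4 stood in the lower part of the genes with a summit. Among IDR peaks, by contrast, 54.0% were weaker than that of dre4. HtrA2, which encodes a mitochondrial protease (rank 2503, replicate ranks 2709 and 2514), and MBD-like, which encodes a member of a nucleosome remodelling complex (rank 2506, replicate ranks 2737 and 2414), were next to it in rank, and their replicate ranks lay closer together than those of dre4.

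Ssrp, the gene of the precipitated subunit, lies on chromosome 2R from 23809004 down to 23806361 on the minus strand (2644 bp) and has 1 transcript. It had no summit in its window in replicate 1, in the pooled list or in the IDR list. Replicate 2 alone had summits there. The first, 164 bp upstream of the Ssrp start, lay closer to the divergent gene CG5543, 68 bp upstream of its start, since the genes are 231 bp apart. The second, with a signal of 43.8 at rank 10256, lay within CG5543. The nearest summits in the other lists were 3129 bp upstream in replicate 1 (rank 7361) and 3086 bp upstream in the pooled list (rank 7637), both by asRNA:CR44807. The nearest IDR summit was 9559 bp upstream, near pippin, at rank 3724. Inside the gene body, dre4 had 0 summits in replicate 1 and 1 in replicate 2, and Ssrp had 0 in each. Summits inside gene bodies were not counted over all genes in the replicate lists, so these counts cannot be called low.

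**Figure D2:**
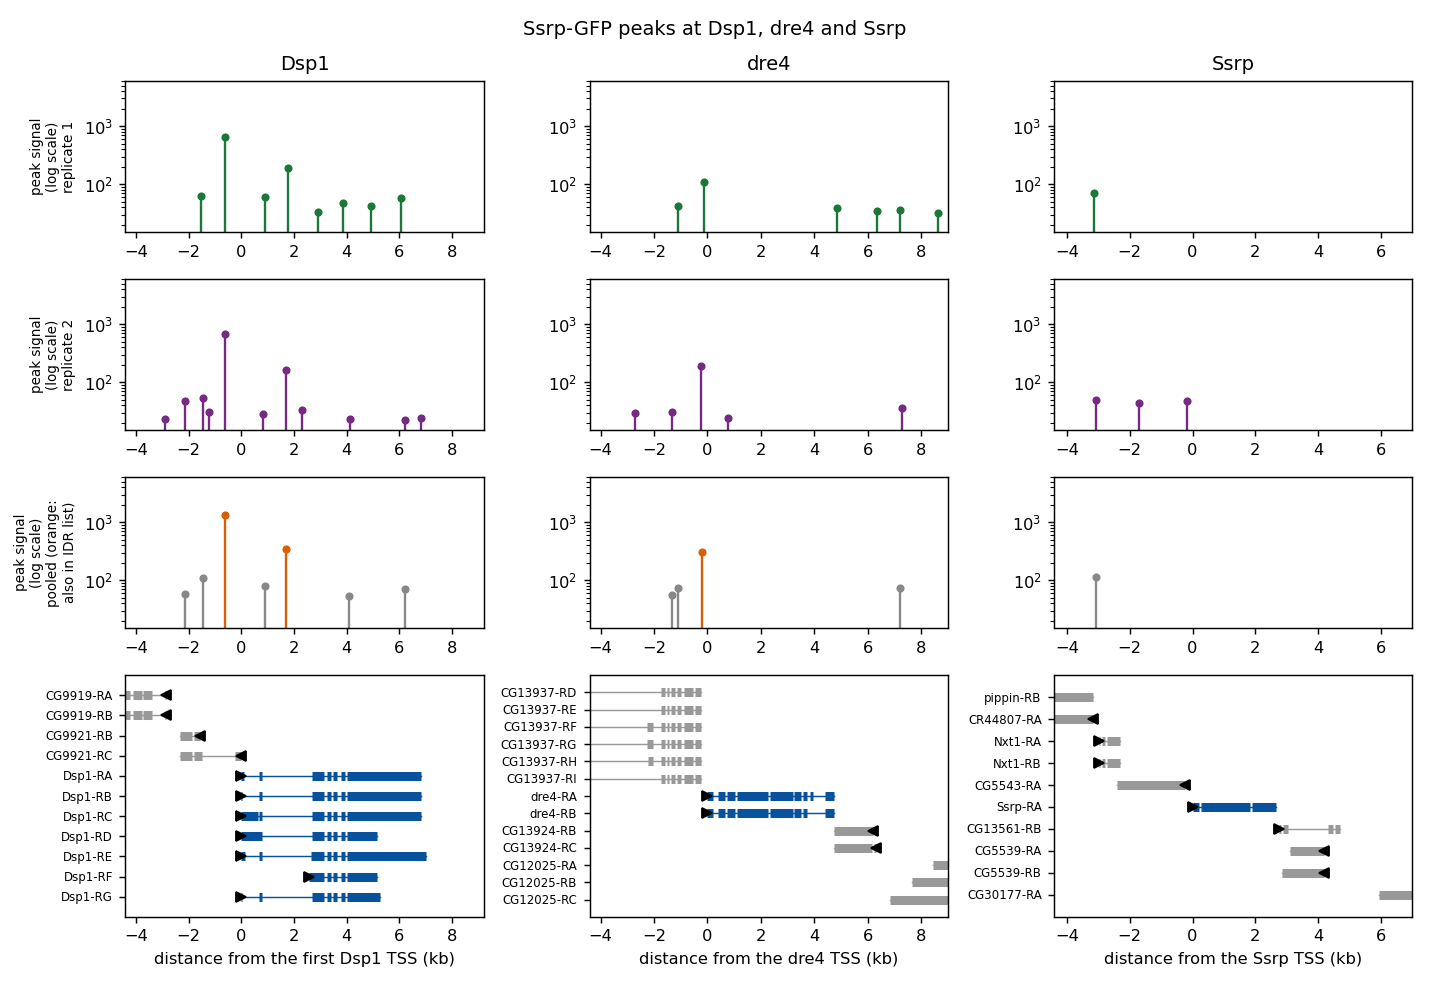
Peaks at Dsp1, dre4 and Ssrp (columns) in replicate 1, replicate 2 and the pooled list (rows), with IDR peaks in orange. The x axis is the distance in kb from the start site in the direction of transcription, each stick is a summit with its signal on a log y axis, and gene models are below; Dsp1 has the tallest sticks, dre4 has 1 IDR peak just upstream of its start and within 2 kb of Ssrp only replicate 2 has sticks.

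All 8 IDR peaks had an overlapping peak in both replicates, as 98.7% of all IDR peaks did, and all 8 had both replicate summits within 100 bp of the IDR summit, against 94.9%. Under the rule that the overlap cover 50% of each peak, 5 of the 8 were found in both replicates, against 77.1% of all IDR peaks. The 3 that missed were those of unequal width. The replicate 1 peak had overlaps of 0.301 and 0.328 of the wider peak with the IDR peaks at 21700803 and 16335314, which are 119 and 130 bp wide where the commonest width was 396 bp, and the narrow replicate 2 peak of dre4 had 0.270. The weakest peak of HmgD and the peak at dre4 had the widest differences, rank 3880 in replicate 1 and 6459 in replicate 2 for HmgD, and 3844 and 2044 for dre4. The dre4 peak and the strongest peak of HmgD and HmgZ ranked higher in replicate 2, and the other 6 ranked higher in replicate 1. With 1 value per replicate, these differences have no error of their own.

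**Figure D3:**
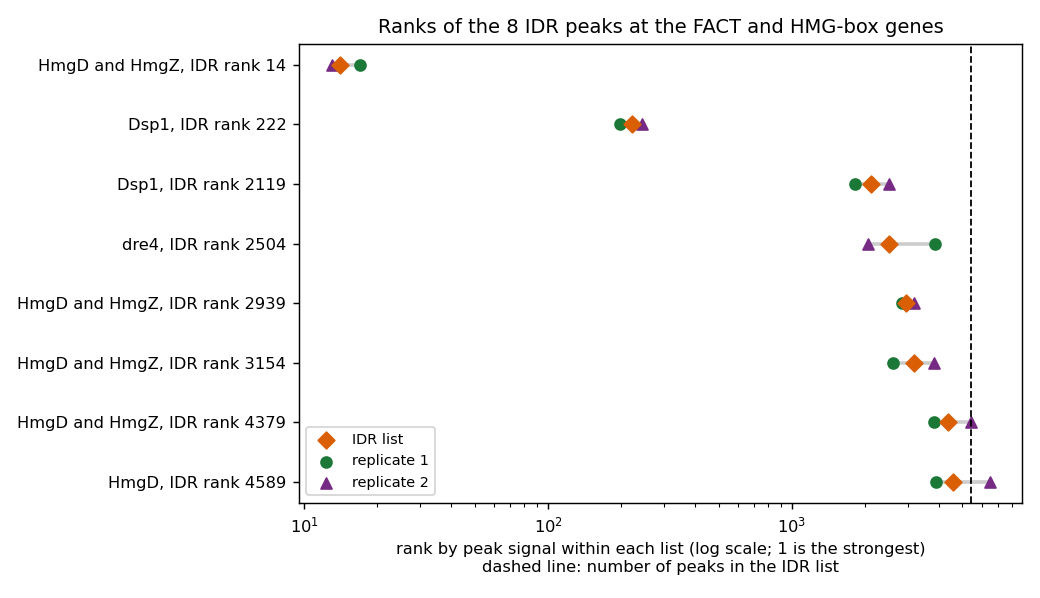
Ranks of the 8 IDR peaks in the IDR list, replicate 1 and replicate 2 on a log axis on which 1 is the strongest peak. The dashed line marks 5445, the length of the IDR list; the weakest HmgD peak is the one that falls beyond it, at rank 6459 in replicate 2.

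Beyond the IDR peaks, the windows held 26 more pooled peaks. Of these, 20 had an overlapping peak in both replicates, 3 in replicate 1 only and 3 in replicate 2 only. They lay in promoters (10), introns (8), coding exons (5) and 3′ UTRs (3). Neither the replicate support nor these classes were counted over the whole pooled list. Whether the 26 differ from other weak pooled peaks is therefore not known, and the class shares of IDR summits do not apply to them. One was in the 3′ UTR of Dsp1 at 16339821, with a signal of 70.6, and 1 in its coding sequence at 16337688, with 53.3. The 3 pooled peaks of dre4 were all outside the gene body.

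By base composition at the summit, the IDR peaks of the set were divided at the upper quartile of all IDR peaks. An upper quartile always leaves a fixed share of a list above it, so such a division is not particular to these genes. In the summit and 50 bp on either side, 5 of the 8 had a GC content of 22.8% to 31.7%, against a median of 28.7% and quartiles of 24.8% and 34.7% over all IDR peaks. These were the peaks at 21709742 (22.8%) and 21703430 (24.8%) of HmgD and HmgZ, that of dre4 (28.7%) and those of Dsp1 (30.7% upstream and 31.7% in the intron). Between 14.8% (at 21709742) and 62.0% (at the intronic Dsp1 peak) of all IDR peaks had a lower GC content than these 5. The other 3, all of HmgD and HmgZ, were above the upper quartile: the summit at 21702658 had 44.6%, that at 21700803 49.5% and the coding-exon summit of HmgD 56.4%. Of all IDR peaks, 94.2%, 97.8% and 99.4% had a lower GC content than these 3. At 600 bp from the summit the GC content is given as the mean of both sides. It was 57.4% at dre4, 48.0% at the strongest peak and 45.0% at 21709742. The median was 43.1% and the upper quartile 48.5% over all IDR peaks. The sides could differ widely, as at 21709742, with 34.7% before the summit and 55.4% after it. The upstream Dsp1 peak had a mean of 38.1%, from 25.7% before and 50.5% after the summit. The intronic one had 29.2%, from 33.7% before and 24.8% after, so only the side after it was below its own summit. Both Dsp1 profiles fell lower away from the summit, to 15.8% at 520 bp before the upstream one and 22.8% at 540 bp after the intronic one. Of the other 3, the peak at 21700803 had a mean of 49.5% at 600 bp, that at 21702658 48.5% and the coding-exon peak 36.1%.

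**Figure D4:**
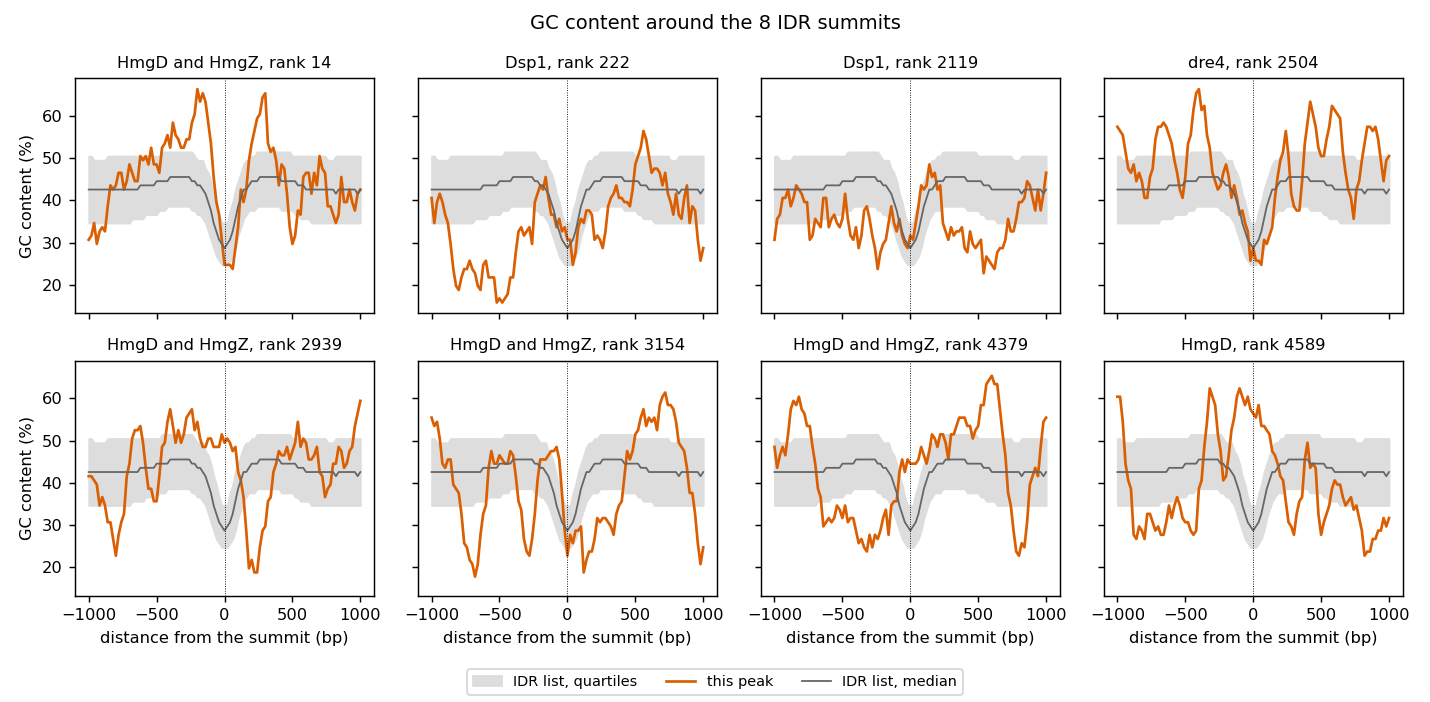
GC content (in windows of 50 bp on either side of a position) along 1000 bp on either side of the 8 IDR summits (orange), with the median (grey line) and quartiles (grey band) of all IDR peaks. The x axis is the distance from the summit in bp and the y axis the GC content in percent. At 0 bp the 5 peaks of ranks 14, 222, 2119, 2504 and 3154 lie below the upper quartile, and those of ranks 2939, 4379 and 4589 lie above it. The Dsp1 peaks (ranks 222 and 2119) have no minimum at 0 bp.

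Long runs of A and T followed the same division. Within 100 bp of the summit on either side, the longest run without G or C was 24 and 18 bases at the Dsp1 peaks, 15 at 21709742, 14 at dre4 and 13 at the strongest peak of HmgD and HmgZ. It was 7, 6 and 5 bases at the 3 GC-rich summits. The median was 13 over all IDR peaks and 10 over all start sites. The letters AAAAAA were searched like all elements on both strands, with overlapping matches counted. They occurred in the 5 windows of lower GC content and in none of the 3 others. The shares were 52.6% of IDR windows and 36.0% of windows at start sites. Runs and GC content are read from the same bases, so these counts are not separate evidence.

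Letters of known elements were counted in the same 8 windows, which are too few to show a lack or an excess of any element. TATCGATA, bound by DREF, and the E-box CACGTG were in none of the 8 windows, against 2.20% and 1.40% of IDR windows and 6.44% and 2.80% of windows at start sites. CGATA, bound by BEAF-32 and contained in the DREF letters, was in 1 (the peak at 21700803), against 23.8% of IDR windows and 37.1% at start sites. The GAGA element GAGAG was in 2, the peak at 21700803 and the coding-exon peak, against 17.6% and 25.0%. The TATA box TATAAA was in 3, the strongest peak, the upstream Dsp1 peak and the peak at 21709742, against 43.5% and 26.9%. The Zelda element CAGGTA was in the upstream Dsp1 peak alone, from base 81 of the sequence printed above on the other strand, against 3.80% and 4.26%. TAATTA, the core of many homeodomain sites, was found at dre4 and in the upstream Dsp1 peak, against 21.2% and 9.39%. GGTTCGA, the core of the B box of tRNA genes, was at dre4 alone, from base 128 of the printed gap, against 0.882% of IDR windows and 1.83% at start sites. A match of letters is not a binding site, and the last 2 elements were picked after the sequences had been seen.

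A pair of lists of related genes were set beside the 5. Of 18 other HMG-box genes, 5 had an IDR summit within 500 bp of a start site (27.8%, against 19.3% of protein-coding genes), and all 5 summits were upstream. The share of upstream summits over all protein-coding genes was not computed, so this position cannot be called particular to the list. The strongest were at bbx (signal 1783, rank 111, replicate ranks 122 and 100, 214 bp upstream) and at Sox14, an ecdysone-responsive transcription factor (1735, rank 124, replicate ranks 148 and 98, 240 bp upstream). Sox100B (578, rank 1054), cic, the repressor Capicua (482, rank 1385), and Hmg-2 (379, rank 1899) followed. The peaks at bbx and Sox14 were above those of Dsp1 and dre4 in the list and below the strongest peak of HmgD and HmgZ. No IDR summit lay at a start site of the other 13: pan, tHMG1, tHMG2, TFAM, Bap111, polybromo, CG12104, Sox15, Sox21a, Sox21b, Sox102F, SoxN and D. In the gene or within 2 kb, 10 of the 18 (55.6%) had an IDR summit, against 35.5% of protein-coding genes. By that measure cic had 6 summits, more than the 5 of HmgD.

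Of 21 genes for histone chaperones and for proteins that work with FACT during elongation, 7 had an IDR summit at a start site (33.3%, against 19.3%). Of these summits 6 were upstream, again without a share over all genes to set beside them. The strongest was at Chd1, a chromatin remodeller (signal 803, rank 627, 208 bp upstream). The others were yem, which encodes a partner of the chaperone Hira (383, rank 1862), Spt6, a chaperone of the elongating polymerase (252, rank 3260), the Paf1 complex genes atms (214, rank 3899) and hyx (160, rank 5325), XNP (185, rank 4610) and Dek (159, rank 5372). In the gene or within 2 kb, 13 of the 21 (61.9%) had an IDR summit, against 35.5% of protein-coding genes. As with the 5 genes, the lists were chosen with results of these data known, and the shares are given without a test.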

How the data were processed

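ChIP-seq of GFP-tagged Ssrp was measured in 2 biological replicates of whole embryos, 1 group with no comparison between groups. The authors' deposited signal of each peak and the deposited −log10 of the q-value, which is capped, came from their peak caller; the text deposited with the samples derives every list from the replicate alignments and 1 further alignment that all lists share. The aligner, the caller, the IDR cutoff and what that shared alignment holds were not given in the sources used here. Summits as deposited that lay outside their peak (4 in the IDR list) were set to its nearest base.

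Gene models were those of Ensembl release 115 and sequence that of the Release 6 genome, the build of dm6. Ranks follow signal within a list. Promoters were 500 bp on either side of any start site, and a replicate supported a peak when the overlap covered 50% of each. GC content was taken over 50 bp, and elements over 100 bp, on either side of the summit. Python 3.11.15, pandas 2.3.3 and numpy 2.4.6 were used, and the counting was checked on simulated peaks. The members and lists were chosen with earlier results of these data known. Named are the 5 members, genes whose start is nearest to a summit or that overlap a member, neighbours in rank of each strongest peak, and the further lists' genes with a summit; genes sharing the coding-exon class were named after their values were seen. One listed chaperone name, Iws1, matched no gene. No interval was computed on the 5 genes, and depth, unknown here, limits which weak peaks could be seen.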

Additional observations from a re-analysis of the deposited data

How the results depend on the processing

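The count of 4 genes with an IDR summit in the window did not change for windows of 500 bp to 5 kb. The background rose from 26.7% to 49% over these windows. The count was also 4 for other lengths of the IDR and pooled lists (backgrounds 22.9% to 68.2%). For the 5445 strongest peaks of each replicate alone it was again 4 (backgrounds 35.6% in replicate 1 and 35.3% in replicate 2). The unchanged count thus stood against different backgrounds. With the gene alone the count was 3 (background 12.2%). The count of 2 genes with a summit at a start site became 4 with promoters of 1000 bp (background 22.6%) and 1 in the stronger 50% of the IDR list (background 11.8%). In the 5445 strongest peaks of a single replicate it was 2 without replicate 1 (background 19.1%) and 3 without replicate 2 (background 19.5%). In the latter HmgD joined through its peak near HmgD-RA. The whole replicate lists, tried after seeing the data, gave 4 and 5 genes in the window (backgrounds 68.4% and 71.4%) and 4 and 5 at a start site (backgrounds 44.1% and 42.8%) in replicates 1 and 2. Of the 18 other HMG-box genes, 3 had a summit with promoters of 250 bp (background 14.6%). Of the 21 chaperone genes, 4 did when only the nearest start site counted (background 13.8%). In the stronger 50% of the IDR list 2 of the 21 did, a share below the background of 11.8%. In a pooled list cut at 2 times the IDR length 13 did (background 29.1%). Support in both replicates was 8 of 8 with any overlap and 8 of 8 with summits within 100 bp. In the stronger 50% HmgD and HmgZ kept 1 summit each. Ranked by −log10 q, 6 of the 8 peaks tied at 1782.5. GC content moved for 2 peaks, to 21.6% in a narrower window at the intronic Dsp1 peak and to 33.3% in a wider one at 21709742. In all, 87 of 112 alternative values were counted as close to the main ones. Closeness was judged by ratio for counts, by a binomial interval on the bases for GC content and by the spread of the replicate ranks for ranks. Many settings are nested in each other, so this tally does not measure how firm the results are. No paired analysis was possible because there is only 1 group. The 1 transgenic line, mixed cell types and absent read numbers limit what the peaks can show.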
